A study of Homo sapiens with 12 samples.

Results

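The experiment described here compared cells given the phorbol ester PMA with untreated cells in BxPC-3, a human line from a primary pancreatic tumour. Its members were the 6 arrays whose labels name that line, of 12 arrays in the series. The untreated group held 3 arrays from cell passages 7, 9 and 11, and the PMA group held 3 arrays from the same passages. PMA (phorbol 12-myristate 13-acetate) was given at 1 µM for 4 h to cells kept in low serum overnight. Its solvent was DMSO, and the sources used here do not say if untreated cells received DMSO. Both groups were grown in the same serum-containing medium and share the genotype of the line, which is a single established culture, so the passages are not independent tumours. The remaining arrays came from AsPC-1, a line from ascites treated in the same way at passages 8, 10 and 12, and they are used only to show where the response differed. The series asked which genes an inducer of invasion changes in such cells.

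PMA stands in for diacylglycerol, the lipid that activates conventional and other protein kinase C (PKC) isoforms at the membrane. Active PKC feeds into the RAF, MEK and ERK kinases and into the kinases that free NF-kB, so it turns on early response genes, among them the FOS, JUN and EGR transcription factors. Those factors bind the promoters of later genes, and AP-1, a dimer of FOS and JUN proteins, was first named for its site in genes that answer phorbol esters. In epithelial cells PKC activation is known for scattering, protease secretion, remodelling of cell junctions and, in squamous cells, terminal differentiation. PKC itself is regulated largely after its RNA is made, so RNA levels of its isoforms do not report its activity.

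Epithelial markers were present, as the label of a pancreatic cancer line calls for. Of 12 written markers of pancreatic duct and carcinoma epithelium, 11 had a probe set and 10 lay above the signal minimum, and their summed signal was 24100 to 28920 untreated and 31020 to 31630 after PMA. KRT19, a duct keratin, read 3970.1, 4774 and 3639 untreated and 4591, 4327 and 4576 after PMA. All 5 islet hormone and granule markers with a probe set were below the minimum, 1 of 6 endothelial markers, 2 of 5 acinar markers, 4 of 6 leukocyte markers and 6 of 8 fibroblast markers passed it, and the summed signals of these lists stayed under 400 on every array. The leukocyte marker PTPRC stayed between 1.58 and 6.30 on all 6 arrays. SMAD4, a tumour suppressor, read 3.41 to 15.2 and was not tested. The tumour suppressor CDKN2A read 18.9, 11.98 and 12.2 untreated and 20.3, 36.9 and 4.91 after PMA. For AsPC-1 the same probe sets read 22.1 to 71.4 for SMAD4 and 1238 to 2988 for CDKN2A. Across genes, untreated arrays correlated with each other at 0.978 to 0.983, PMA arrays at 0.970 to 0.982, and arrays of different groups at 0.934 to 0.956. The 3' to 5' ratio of the ACTB control probe sets, a sign of RNA integrity, was 2.56, 2.95 and 4.15 untreated and 1.84, 1.99 and 2.02 after PMA. It moved with treatment, its part in the changes described here was not tested, and the GAPDH ratio lay between 1.00 and 1.12 on all 6 arrays.

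After PMA, 2960 of 13362 tested genes (22.2%) changed at an adjusted p under 0.05, of which 1157 (8.66%) rose and 1803 (13.5%) fell. Rises were fewer, with a median change of 0.83 against -0.86 for falls, and 415 rises and 671 falls reached 2-fold. Among the rises 93 reached 4-fold and 23 reached 8-fold, against 53 and 4 falls of those sizes. A level here is MAS5 signal, and a change is PMA minus untreated on log2(signal + 3), fitted over the 3 passage pairs with limma, with ± giving the standard error. Unless another setting is named, adjusted p-values are from that fit, two-sided and Benjamini-Hochberg corrected over the 13362 genes. They rest on how the PMA minus untreated difference varied between passages of one line, a spread that limma pools across genes. A gene's own spread had 2 residual degrees of freedom, against 6.7 drawn from the other genes. At an unadjusted p under 0.05 there were 4710 genes. The untreated and PMA arrays did not overlap for 5895 genes (44.1%), and for 2917 of the 2960 called genes. The same direction in all 3 passages was seen for 2955 of the called genes. Of 1802 called genes with another probe set above the signal minimum, 1331 had every such probe set changed in the same direction.

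**Figure D1:**
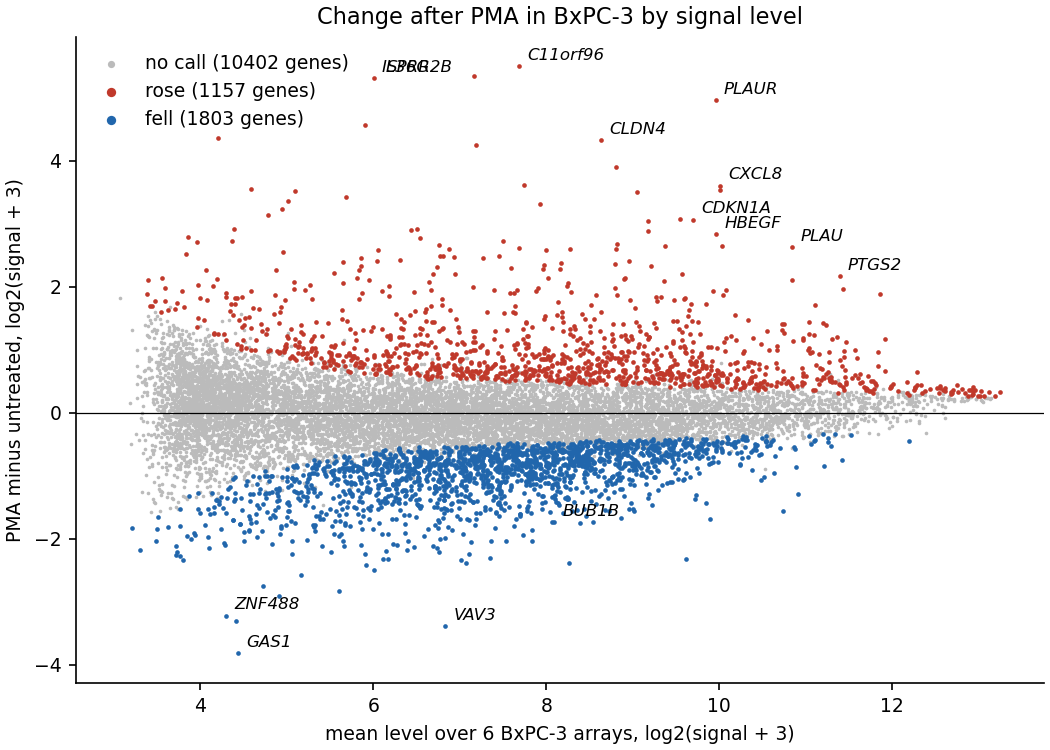
Log2 change after PMA (vertical axis, difference of log2(signal + 3)) against the mean level of the gene over the 6 BxPC-3 arrays (horizontal axis, log2(signal + 3)), 1 point a gene. Red points are the 1157 genes that rose and blue points the 1803 that fell, and the rises reach further from 0 than the falls.

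Calls were spread unevenly over signal levels. When genes were split evenly into 4 bins of signal, in the dimmest bin 2.66% rose and 3.65% fell, and in the bin next to the brightest 9.10% rose and 21.7% fell. The brightest bin had the opposite balance, with 15.6% up and 12.9% down. The median change over all genes was -0.03, and by bin, from dim to bright, it was 0.12, -0.08, -0.13 and 0.00. The reference genes ACTB (0.35 ± 0.10) and GAPDH (0.31 ± 0.08), a cytoskeletal actin and a glycolytic enzyme, both rose by a small amount with overlapping groups, and neither call held after median centring (adjusted p = 0.204 and 0.236) or quantile normalization (0.382 and 0.445). In the fit without passage pairing GAPDH did not pass (adjusted p = 0.084). Calls on changes of about that size in bright genes can therefore depend on the scaling. The count of calls was 1281 without passage 7, 3485 without passage 9 and 1991 without passage 11. The PMA array of passage 9 correlated at 0.970 and 0.974 with the other PMA arrays, which correlated at 0.982 with each other. Without passage 7, ACTB (adjusted p = 0.165) and GAPDH (0.169) no longer passed. Leaving out passage 11 ended the calls on ACTB (adjusted p = 0.286) and GAPDH (0.21).

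Several of the largest rises were genes of secreted signals, the cell surface and squamous epithelium. C11orf96, a gene of unclear role, read 26.2, 26.2 and 30.6 untreated and 1399.5, 1259 and 1506 after PMA, a log2 change of 5.50 ± 0.15 (adjusted p = 8.76e-07). SPRR2B, a small proline-rich protein cross-linked into the envelope of squamous cells, read 22.02, 23.9 and 13.9 untreated and 1053, 625 and 1161 after PMA (5.35 ± 0.26, adjusted p = 1.59e-05). Its probe set is of the x kind, which can also bind transcripts of other genes. Those of GDF15 and CXCL8, given further on, are of the x kind too. Of the 2960 called genes, 962 (32.5%) rested on a probe set marked s or x, that of PLAUR (s) among them. IL36G, an interleukin-1 family cytokine of epithelia, read 6.82, 8.41 and 6.42 untreated and 474, 269 and 506 after PMA (5.31 ± 0.25, adjusted p = 1.44e-05). The untreated arrays were all dim for this gene and the PMA arrays clearly above the signal minimum. PLAUR, the urokinase receptor, read 174, 232 and 132 untreated and 5675, 5358 and 5591 after PMA (4.96 ± 0.17, adjusted p = 2.01e-06). PLAUR was the brightest of these genes after PMA, and its 3 PMA arrays agreed closely. GRHL3, a transcription factor of epidermal barrier formation, read 2.77, 20.8 and 10.5 untreated and 296, 321 and 257 after PMA (4.58 ± 0.33, adjusted p = 9.98e-05). Untreated GRHL3 signals differed widely between passages and all PMA values lay far above them.

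MYRFL, a gene of the myelin regulatory factor family, read 0.825, 0.885 and 1.49 untreated and 88.6, 75.4 and 78.4 after PMA, so it was near the floor of the arrays before PMA (4.37 ± 0.34, adjusted p = 1.30e-04). The size of a fold change from such a floor depends on the pseudocount. CLDN4, a claudin that seals tight junctions, read 80.5, 104 and 74.2 untreated and 1603, 2019 and 1710.4 after PMA (4.33 ± 0.14, adjusted p = 2.01e-06). RGS4, which speeds the switching off of G-protein signals, read 40.01, 53.5 and 12.4 untreated and 688, 505 and 735 after PMA (4.25 ± 0.37, adjusted p = 2.00e-04). GDF15, a stress-induced cytokine of the TGF-beta superfamily, read 102, 103 and 136 untreated and 1435, 2896 and 1228 after PMA (3.90 ± 0.26, adjusted p = 7.50e-05). All 3 GDF15 values after PMA were high, with that of passage 9 the highest. LIF, a cytokine of the interleukin-6 family, read 59.1, 51.8 and 63.8 untreated and 661, 814 and 776 after PMA (3.62 ± 0.16, adjusted p = 9.62e-06). CXCL8, the neutrophil attractant interleukin-8, read 373, 258 and 261 untreated and 3427, 3799.9 and 3583 after PMA (3.60 ± 0.15, adjusted p = 8.95e-06). BCL2A1, a survival protein of the BCL2 family that NF-kB induces, read 5.19, 1.53 and 6.19 untreated and 80.4, 46.3 and 133 after PMA (3.56 ± 0.30, adjusted p = 1.61e-04). These 12 are the largest rises among genes whose groups do not overlap, so the gap between groups was part of the choice.

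**Figure D2:**
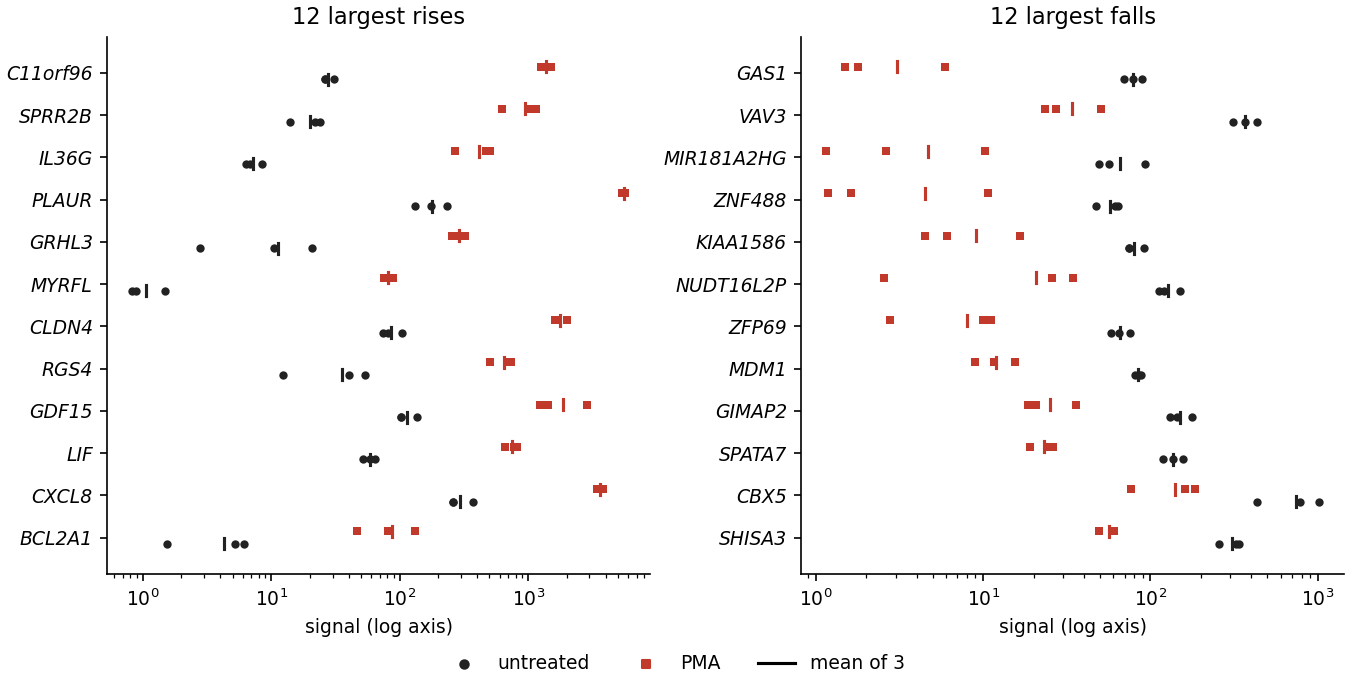
Signal on each of the 6 BxPC-3 arrays (log axis) for the 12 genes with the largest rises and the 12 with the largest falls, with black circles for untreated arrays, red squares for PMA arrays and a vertical tick for the mean of 3. Genes were chosen among those whose groups do not overlap, and several of the fallen genes reach signals under 10 after PMA.

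The promoters of 4 strongly risen genes are shown because each holds TGAGTCA, the phorbol ester response element bound by AP-1, on either strand. Sequences are from RefSeq (GRCh38.p14), run 5′ to 3′ on the gene's strand from 250 bases before to 50 after the start, and have the element in capitals. PLAUR lies at chr19:43670120-43670419 (minus strand), CLDN4 at chr7:73830746-73831045 (plus strand), CXCL8 at chr4:73740319-73740618 (plus strand) and IL1A, the cytokine interleukin-1 alpha, at chr2:112784351-112784650 (minus strand).
PLAUR: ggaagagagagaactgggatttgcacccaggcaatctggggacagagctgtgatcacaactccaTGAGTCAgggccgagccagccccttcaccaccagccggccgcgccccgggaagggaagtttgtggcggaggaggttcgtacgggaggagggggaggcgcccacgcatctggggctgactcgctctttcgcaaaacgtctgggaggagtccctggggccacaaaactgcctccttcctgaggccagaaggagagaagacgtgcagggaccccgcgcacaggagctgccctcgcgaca
CLDN4: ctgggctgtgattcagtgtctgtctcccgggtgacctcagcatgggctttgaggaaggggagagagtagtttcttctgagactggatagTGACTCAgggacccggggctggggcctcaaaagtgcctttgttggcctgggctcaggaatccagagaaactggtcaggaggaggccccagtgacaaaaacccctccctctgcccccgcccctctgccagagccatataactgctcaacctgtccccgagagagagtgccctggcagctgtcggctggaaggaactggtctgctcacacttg
CXCL8: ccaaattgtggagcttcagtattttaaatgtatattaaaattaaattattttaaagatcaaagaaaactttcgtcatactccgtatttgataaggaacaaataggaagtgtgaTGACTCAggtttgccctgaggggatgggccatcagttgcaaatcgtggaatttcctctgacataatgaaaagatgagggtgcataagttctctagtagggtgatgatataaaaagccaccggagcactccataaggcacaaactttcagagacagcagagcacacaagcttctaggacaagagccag
IL1A: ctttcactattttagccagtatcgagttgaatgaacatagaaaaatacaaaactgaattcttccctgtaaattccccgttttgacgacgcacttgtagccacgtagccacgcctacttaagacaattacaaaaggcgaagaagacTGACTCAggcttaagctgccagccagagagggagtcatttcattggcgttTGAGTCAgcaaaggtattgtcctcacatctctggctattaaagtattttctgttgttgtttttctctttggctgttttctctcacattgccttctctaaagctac
In the reversed orientation the element reads TGACTCA, as in CLDN4, CXCL8 and IL1A. Of 13362 tested genes, 10763 had a promoter in the table. The element was present in 374 of all 10763 promoters (3.47%), in 57 of 926 of genes that rose (6.16%), in 37 of 1507 of genes that fell (2.46%) and in 10 of 72 of genes that rose at least 4-fold (13.9%). The cAMP response element TGACGTCA, searched on both strands, was in 2.93% of all promoters, 4.43% of those that rose and 2.72% of those that fell. The NF-kB site GGANTTTCC was in 1.59%, 3.67% and 1.06%, and in 9.72% of genes that rose at least 4-fold. The EGR site GCGTGGGCG was in 1.26%, 1.08% and 1.19%. None of these motifs contains another, and a match is a description of the letters in this window. The element was also in the promoter of VAV3, which fell.

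Many early transcription factors rose. Of 17 tested AP-1 and bZIP factors 9 rose (52.9%, against 8.66% of all tested genes), and the median of the list was 0.58 against -0.03. FOSL1, the FOS relative most tied to invasive growth, read 454, 321 and 259 untreated and 1295, 1195 and 1144 after PMA (1.84 ± 0.15, adjusted p = 1.60e-04). FOS itself read 51.2, 63.5 and 42.3 untreated and 90.2, 162 and 96.5 after PMA, a smaller rise from a lower level (1.07 ± 0.19, adjusted p = 0.00444). ATF3, a stress-induced partner of JUN, rose by 2.15 ± 0.23, FOSB by 1.85 ± 0.24 and BACH2, a bZIP repressor, by 2.58 ± 0.24. Every BACH2 value after PMA (204, 139 and 142) lay above the untreated ones (26.2, 33.8 and 15.5). Among EGR, KLF, NR4A and other early factors, 17 of 29 rose (58.6%) and 1 fell, with a median of 0.73. EGR3 read 55.6, 52.6 and 29.3 untreated and 273, 218 and 299 after PMA (2.48 ± 0.24, adjusted p = 3.14e-04), while EGR1, usually an earlier and briefer gene, read 636, 399 and 621 untreated and 789, 1150.2 and 804 after PMA (0.73 ± 0.23, adjusted p = 0.0473). KLF6, a zinc-finger factor, rose by 2.60 ± 0.19, from 124, 157 and 95.8 to 828, 664 and 799 in the 3 passages. CSRNP1, a nuclear factor induced by AXIN, rose by 1.94 ± 0.17 and the orphan nuclear receptor NR4A1 by 1.94 ± 0.45. BHLHE41, a circadian repressor, fell by 1.10 ± 0.15. Of 18 ETS factors, which join AP-1 on many protease promoters, 6 rose (33.3%). ETS1 read 1548, 1196 and 1118 untreated and 3613, 3004 and 3783 after PMA (1.43 ± 0.13, adjusted p = 2.11e-04), and ETS2 and ELK3 rose by 0.81 ± 0.17 and 0.81 ± 0.15. With passage 7 set aside, EGR1 (adjusted p = 0.07), NR4A1 (0.0976), ETS2 (0.123) and ELK3 (0.0545) missed the threshold. The call on EGR1 (adjusted p = 0.0817) did not hold when passage 9 was left out. The change was 0.34 without passage 9 for EGR1. Of the other probe sets above the signal minimum, 1 of 2 for ETS2 had a difference of the opposite sign. Among the lists, limma found 11 rises without passage 7 and 3 falls without passage 9 for EGR, KLF, NR4A and other early transcription factors. For ETS factors limma gave 2 rises without passage 7.

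Inhibitors that act back on the ERK pathway rose after PMA. Of 20 tested MAP kinase phosphatases, Sprouty proteins and related inhibitors 11 rose (55%) and 1 fell, with a median of 0.78. DUSP5, a nuclear ERK phosphatase, changed by 3.08 ± 0.16 (adjusted p = 1.89e-05), from signals of 257, 222 and 289 to 2105, 2509 and 1932. DUSP1, which acts on p38, JNK and ERK, read 113, 126 and 93.8 untreated and 529.6, 554 and 561 after PMA (2.28 ± 0.16, adjusted p = 7.51e-05). DUSP6, the cytoplasmic ERK phosphatase, was bright before treatment and rose less, reading 1326, 1259.8 and 1098 untreated and 2593, 1703 and 2124 after PMA (0.78 ± 0.14, adjusted p = 0.00435). DUSP10, a phosphatase of p38 and JNK, rose by 2.62 ± 0.18 and ERRFI1, an inhibitor of the EGF receptor, by 2.11 ± 0.10. SPRY1 moved the other way and fell by 0.99 ± 0.26. In the MAP kinase cascade itself 7 of 26 members rose (26.9%) and 5 fell (19.2%), with a median of -0.07. MAP3K8, a kinase that activates MEK downstream of NF-kB signals, rose by 2.20 ± 0.23, from 33.7, 55.1 and 85.6 to 194, 358 and 255. MAP3K5, a stress kinase of the p38 and JNK arm, fell by 1.25 ± 0.21 and MAP3K4 by 1.10 ± 0.14. MAPK3 (ERK1) read 127, 62.3 and 57.6 untreated and 52.4, 133 and 68.8 after PMA and passed no test. Among 21 members of PKC, PKD and diacylglycerol signalling 3 rose and 3 fell, 14.3% each, against 8.66% and 13.5% of all tested genes. The median of that list was -0.07, and its sign turned after quantile normalization (0.03). PRKCA and PRKCD, a calcium-dependent and a calcium-independent isoform, differed by 0.24 ± 0.16 and 0.38 ± 0.27 without passing. MARCKSL1, a relative of the PKC substrate MARCKS, rose by 2.58 ± 0.16 and PLCE1, a phospholipase C, fell by 1.15 ± 0.19. In the fit that omitted passage 7, DUSP6 (adjusted p = 0.0591) and SPRY1 (0.144) lost their calls. When passage 11 was dropped, SPRY1 (adjusted p = 0.117) missed the threshold. Other settings gave 2 rises and 3 falls without passage 7, 4 rises and 5 falls without passage 9, 3 rises and 2 falls without passage 11 and 4 rises after median centring for MAP kinase cascade. For PKC, PKD and diacylglycerol signalling limma gave 1 rise and 1 fall without passage 7 and 1 fall without passage 11. The balance of rises and falls turned without passage 7 and without passage 9 for MAP kinase cascade.

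NF-kB genes had the largest share of rises among the lists. Of 19 tested subunits, inhibitors and targets 14 rose (73.7%) and 1 fell, with a median of 1.02. TNFAIP3 (A20), which shuts NF-kB signalling off, read 267, 207 and 166 untreated and 1603, 1345 and 1786 after PMA (2.89 ± 0.18, adjusted p = 5.67e-05). NFKBIA, the inhibitor that holds NF-kB in the cytoplasm, read 385, 415 and 479.9 untreated and 1156, 1206 and 1139 after PMA (1.45 ± 0.13, adjusted p = 2.29e-04). Both genes kept a clear gap between groups in every passage. TRAF1, an adaptor of TNF receptors, rose by 1.79 ± 0.27 and TNFAIP8, a TNF-induced gene, by 1.82 ± 0.15. IRF1, an interferon-response factor, was the member that fell, by 0.89 ± 0.25. Of 27 interferon-response genes 5 rose (18.5%) and 1 fell. SOCS3, an inhibitor of cytokine receptor kinases, rose by 2.49 ± 0.21, and OASL, an interferon-induced gene, by 1.38 ± 0.18. Factors that shorten the life of messenger RNA rose in 4 of 16 cases (25%). ZFP36, which destabilises cytokine transcripts, read 318, 319 and 297 untreated and 653, 907 and 664 after PMA (1.23 ± 0.15, adjusted p = 8.19e-04), whereas its relative ZFP36L1 read 1820.5, 1399 and 1537 untreated and 1585, 1198 and 1294 after PMA (-0.22 ± 0.11) and passed no test. BTG1, an antiproliferative factor, rose by 1.42 ± 0.10 and ZC3H12C, a regnase, by 1.28 ± 0.14. Omitting passage 7 ended the call on IRF1 (adjusted p = 0.0512). Without passage 11, IRF1 (adjusted p = 0.193) no longer passed. The change was -0.48 without passage 11 for IRF1. By list, limma gave 2 rises without passage 7, 11 rises without passage 9 and 3 rises without passage 11 for interferon response. For mRNA decay factors limma gave 2 falls after quantile normalization.

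Genes of many secreted signals rose. Of 13 chemokines 5 rose (38.5%) and the median of the list was 0.78. Beside CXCL8, CXCL1 read 77.6, 80.03 and 58.00 untreated and 482, 389 and 375 after PMA (2.49 ± 0.16, adjusted p = 6.67e-05). CCL20, which attracts cells bearing CCR6, rose by 2.77 ± 0.22, from 31.4, 25.5 and 42.7 to 357, 149.9 and 254, and CXCL16, a membrane-bound chemokine, by 1.60 ± 0.18. Of 17 interleukins and other cytokines 7 rose (41.2%) and 1 fell. IL1A rose by 2.64 ± 0.22 and IL1B by 2.34 ± 0.17, the paired interleukin-1 cytokines, with IL1B signals of 323, 291 and 186 untreated and 1241, 1438 and 1299 after PMA. IL6 stayed dim, at 7.56, 7.37 and 6.82 untreated and 14.1, 14.5 and 11.96 after PMA (0.69 ± 0.42, adjusted p = 0.29). The death ligand TNFSF10 fell by 0.82 ± 0.25 with overlapping groups. Of 15 EGF-family ligands, receptors and sheddases 6 rose (40%) and 2 fell (13.3%), against 8.66% and 13.5% of all tested genes. HBEGF, a ligand released by shedding, read 382, 454 and 290.2 untreated and 2945, 2319.8 and 2738 after PMA (2.84 ± 0.17, adjusted p = 5.00e-05). EREG and TGFA, further ligands of the EGF receptor, rose by 1.95 ± 0.24 and 1.27 ± 0.18, while the receptor EGFR read 1399, 1338 and 1312 untreated and 929, 932 and 1008 after PMA and fell by 0.50 ± 0.12. ERBB3 rose by 0.77 ± 0.18 and the ligand BTC fell by 0.79 ± 0.23. Of 25 other growth factors and their binding proteins 9 rose (36%) and 1 fell. VEGFA, the main angiogenic factor, read 1691, 1507 and 2138 untreated and 3148, 4206 and 3047 after PMA (0.96 ± 0.17, adjusted p = 0.00445). BMP2 rose by 1.79 ± 0.17 and FST, the activin antagonist follistatin, by 1.88 ± 0.15. In the prostaglandin pathway 1 of 13 genes rose (7.69%) and 3 fell (23.1%), against 8.66% and 13.5% of all tested genes. The 1 gene that rose was PTGS2 (cyclooxygenase-2), which read 1261, 1234 and 1298 untreated and 5125, 6469.9 and 5515 after PMA (2.16 ± 0.11, adjusted p = 1.78e-05). Leaving out passage 7 ended the calls on EGFR (adjusted p = 0.156), ERBB3 (0.103) and BTC (0.183). With passage 9 set aside, TNFSF10 (adjusted p = 0.0887) and BTC (0.0978) missed the threshold. The call on TNFSF10 (adjusted p = 0.143) did not hold when passage 11 was left out. The change was -1.25 without passage 7 for TNFSF10. Of the other probe sets above the signal minimum, 1 of 1 for IL1A and 2 of 6 for EGFR had a difference of the opposite sign. The list counts became 9 rises without passage 9 for chemokines. For EGF-family ligands and their receptors limma gave 0 falls (3 at an unadjusted p under 0.05) without passage 7, 1 fall without passage 9 and 1 fall after median centring. For other growth factors and their binding proteins limma gave 4 rises without passage 7. For prostaglandin and arachidonate pathway limma gave 1 rise and 0 falls (2 at an unadjusted p under 0.05) without passage 7, 3 rises and 2 falls without passage 9 and 1 fall without passage 11. The balance of rises and falls turned without passage 7 and without passage 9 for prostaglandin and arachidonate pathway.

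Both genes of the urokinase pair rose, by large amounts. PLAU, the urokinase protease that PLAUR anchors at the cell surface, read 742, 899 and 589 untreated and 4556, 4406 and 4736 after PMA (2.63 ± 0.14, adjusted p = 2.54e-05). Untreated PLAU was already bright and its PMA values were among the highest of the response. Of 21 plasminogen system genes 8 rose (38.1%) and 1 fell, with a median of 0.24. Intracellular serpins moved in both directions: SERPINB1, an inhibitor of neutrophil proteases, rose by 1.98 ± 0.18 and SERPINB8 by 1.60 ± 0.16, and SERPINB13, a squamous serpin, fell by 1.69 ± 0.12. Of 22 matrix metalloproteinases, related ADAMTS enzymes and TIMPs 5 rose (22.7%), with a median of 0.16. MMP7 (matrilysin) read 106, 96.9 and 103 untreated and 156, 274 and 244 after PMA (1.08 ± 0.20, adjusted p = 0.0062). MMP10 (stromelysin-2) read 59.8, 86.4 and 85.2 untreated and 307, 117 and 219.9 after PMA (1.36 ± 0.30, adjusted p = 0.0138), with its passages far apart. MMP1, the interstitial collagenase, read 1234, 2055 and 1266 untreated and 4072, 1966 and 3179 after PMA (0.99 ± 0.28, adjusted p = 0.0342). Its PMA value at passage 9 lay under the untreated value of the same passage, and the groups overlapped. MMP25, a membrane-anchored enzyme, rose by 1.16 ± 0.30. MMP9 (gelatinase B) read 40.9, 53.3 and 14.4 untreated and 63.6, 39.2 and 40.4 after PMA (0.50 ± 0.32, adjusted p = 0.307) and passed no test. Of 19 membrane serine proteases and epithelial inhibitors 5 rose (26.3%). ST14 (matriptase), a membrane serine protease, read 112, 132 and 111 untreated and 439, 447 and 495 after PMA (1.94 ± 0.15, adjusted p = 1.37e-04). Its inhibitor SPINT2 rose by 0.72 ± 0.10 and SLPI, an inhibitor of neutrophil elastase, by 0.74 ± 0.11, while SPINT1 differed by 0.34 ± 0.14 (adjusted p = 0.115). In the fit that omitted passage 7, MMP10 (adjusted p = 0.0871), MMP1 (0.203) and MMP25 (0.129) lost their calls. When passage 9 was dropped, MMP25 (adjusted p = 0.0535) missed the threshold. MMP9 (adjusted p = 0.0261) passed without passage 9. The change was 0.88 without passage 7 for MMP10 and 0.63 without passage 7 and 1.52 without passage 9 for MMP1. Among the lists, limma found 5 rises without passage 7 and 4 falls without passage 9 for plasminogen system. For matrix metalloproteinases and TIMPs limma gave 1 rise without passage 7. For membrane serine proteases and epithelial inhibitors limma gave 3 rises without passage 7 and 3 rises after median centring.

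**Figure D3:**
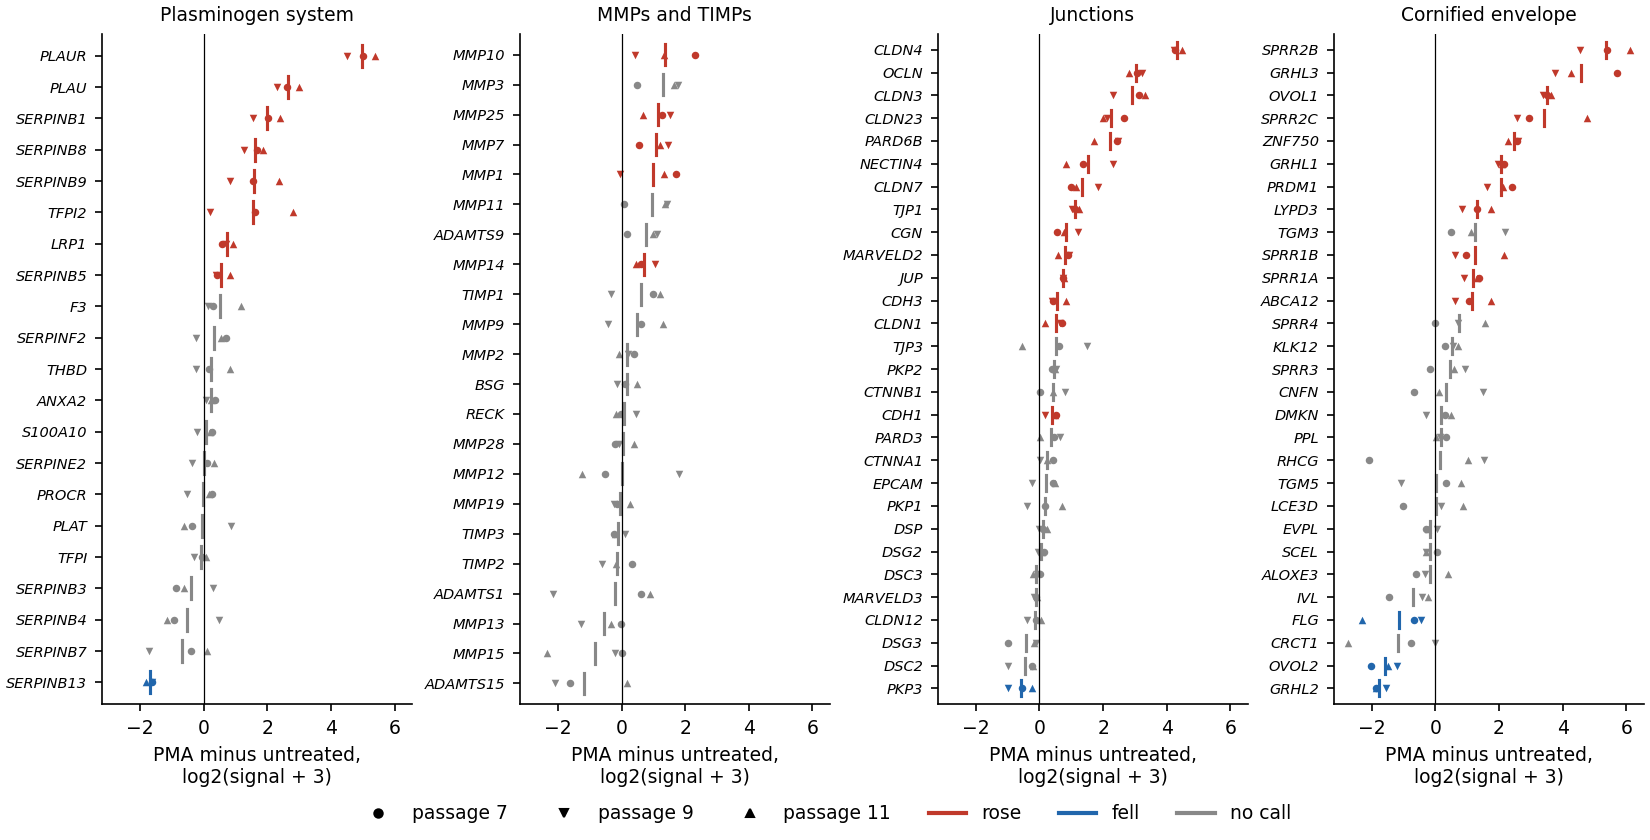
PMA minus untreated on log2(signal + 3) for every tested member of 4 lists (plasminogen system, matrix metalloproteinases and TIMPs, cell junctions, cornified envelope), with 1 marker a passage and a bar at the fitted change, red for genes that rose, blue for genes that fell and grey for no call. Junction and cornified genes at the top of their panels lie to the right of 0 in all 3 passages, while MMP1 has 1 passage at about 0.

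Many epithelial junction genes rose. Of 29 tested genes of tight junctions, desmosomes and adherens junctions 14 rose (48.3%) and 1 fell, with a median of 0.46. OCLN (occludin), a tight-junction strand protein, read 189.8, 183 and 226 untreated and 1616, 1730.1 and 1622 after PMA (3.04 ± 0.14, adjusted p = 1.00e-05). CLDN3 read 2.39, 11.9 and 2.57 untreated and 43.7, 70.8 and 52.7 after PMA (2.92 ± 0.34, adjusted p = 7.67e-04), and CLDN23 rose by 2.26 ± 0.21. With CLDN4 these 4 genes of tight junctions each had all PMA arrays above all untreated arrays. Such a gap, in either direction, was seen for 2917 of all 2960 called genes and 44.1% of all tested genes. CDH1 (E-cadherin), the adhesion molecule of adherens junctions, was bright throughout and read 3064, 3834 and 3612 untreated and 4438, 4317 and 5091 after PMA (0.40 ± 0.10, adjusted p = 0.0267). The desmosomal plakophilin PKP3 fell by 0.59 ± 0.18. Of 13 keratins 3 rose (23.1%), KRT23 by 2.35 ± 0.24, and KRT8 and KRT18, the keratin pair of simple epithelia, by 0.46 ± 0.12 and 0.44 ± 0.09. KRT7 differed by 0.14 ± 0.16 and passed no test. Of 12 tested EMT and mesenchymal genes 1 rose (8.33%) and 0 fell (1 was lower at an unadjusted p under 0.05). Among all tested genes 8.66% rose and 13.5% fell, so the share of rises was near that of all genes. The gene that rose was S100A4, by 0.94 ± 0.13, and the median of the list was -0.05. VIM (vimentin), the mesenchymal filament protein, read 82.8, 153 and 18.2 untreated and 166, 10.4 and 97.5 after PMA, with groups that overlapped fully (-0.10 ± 0.86). Omitting passage 7 ended the calls on CDH1 (adjusted p = 0.195), PKP3 (0.171), KRT8 (0.17) and KRT18 (0.114). Without passage 9, PKP3 (adjusted p = 0.114) no longer passed. KRT7 (0.395, adjusted p = 0.00925) and VIM (1.61, adjusted p = 9.03e-04) passed as rises without passage 9. The VIM change was -0.64 without passage 7 and -1.28 without passage 11. Leaving out passage 11 ended the calls on CDH1 (adjusted p = 0.159) and KRT8 (0.0775). The rises of CDH1, KRT8 and KRT18 were small, near the size seen for ACTB and GAPDH, whose calls did not hold after median centring. By list, limma gave 8 rises without passage 7, 11 after median centring and 13 after quantile normalization for tight junction, desmosome and adherens junction. For keratins limma gave 1 rise without passage 7, 8 rises without passage 9, 1 rise after median centring and 2 rises after quantile normalization. For EMT and mesenchymal genes limma gave 5 rises and a list median of 0.45 without passage 9.

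Genes of squamous differentiation changed in both directions, and related factors moved apart. Of 29 tested cornified envelope and epidermal differentiation genes 11 rose (37.9%) and 3 fell (10.3%), with a median of 0.45. Among all tested genes 8.66% rose and 13.5% fell. OVOL1, a zinc-finger factor of epidermal differentiation, read 135, 145 and 188 untreated and 1564, 1537 and 2379 after PMA (3.51 ± 0.13, adjusted p = 4.35e-06), whereas its relative OVOL2 read 70.3, 68.8 and 69.2 untreated and 14.9, 28.3 and 22.5 after PMA and fell by 1.58 ± 0.24 (adjusted p = 0.00264). The grainyhead factors divided in the same way. GRHL3 rose, as given above, and GRHL2, which maintains epithelial identity, read 581, 588 and 670.4 untreated and 156, 199 and 183 after PMA and fell by 1.76 ± 0.15 (adjusted p = 1.60e-04). ZNF750, a differentiation factor of keratinocytes, rose by 2.47 ± 0.16, from 38.6, 50.8 and 58.6 to 242, 320.5 and 295. SPRR2C rose by 3.43 ± 0.38, and SPRR1B, bright before treatment, read 1863, 1626 and 949 untreated and 3609, 2510.3 and 4204 after PMA (1.24 ± 0.24, adjusted p = 0.0077). IVL (involucrin), an envelope precursor, read 37.6, 31.9 and 21.8 untreated and 11.9, 22.9 and 18.1 after PMA (-0.70 ± 0.33, adjusted p = 0.164) and passed no test. Of 15 S100 proteins and annexins 4 rose (26.7%). S100A3 rose by 1.30 ± 0.21 and S100A6 by 0.66 ± 0.10. Among 20 mucins, CEACAM and goblet genes limma called 0, with 2 at an unadjusted p under 0.05. MUC1 differed by 0.24 ± 0.24 and CEACAM6 by 0.17 ± 0.08, both with overlapping groups. The change was 0.79 without passage 11 for SPRR1B. The list counts became 2 rises without passage 7, 7 rises without passage 9, 2 rises after median centring and 2 rises and 3 falls after quantile normalization for S100 proteins and annexins. For mucins, CEACAM and goblet genes limma gave 3 rises without passage 11. The balance of rises and falls turned after quantile normalization for S100 proteins and annexins.

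Adhesion and guidance genes changed in both directions. Of 22 integrins, laminins and hyaluronan genes 6 rose (27.3%) and 1 fell. ITGA2, a collagen-binding integrin chain, read 2138, 2484 and 2256 untreated and 4033, 4427 and 4048 after PMA (0.86 ± 0.10, adjusted p = 5.73e-04). LAMB3, a chain of laminin-332, rose by 1.45 ± 0.17, ITGB8 by 0.83 ± 0.10 and HAS2, a hyaluronan synthase, by 0.98 ± 0.15. SDC1, an epithelial syndecan, fell by 0.71 ± 0.14, and ITGB4 differed by -0.11 ± 0.15 with overlapping groups. Of 30 ephrins, semaphorins, netrins and their receptors 6 rose and 6 fell, 20% each, against 8.66% and 13.5% of all tested genes. EPHA2, an ephrin receptor of epithelial cells, read 408, 391 and 342 untreated and 1328, 1274 and 1345 after PMA (1.79 ± 0.13, adjusted p = 9.92e-05), and its ligand EFNA1 differed by -0.53 ± 0.20 with overlapping groups. EFNB1 and EFNB2, transmembrane ephrins, rose by 1.10 ± 0.19 and 0.94 ± 0.17. Of 29 actin and focal adhesion genes 3 rose (10.3%) and 2 fell (6.90%), against 8.66% and 13.5% of all tested genes. PFN1 (profilin) was among those that rose, by 0.96 ± 0.16. Among the lists, limma found 3 falls without passage 7 for ephrins, semaphorins, netrins and their receptors. For actin cytoskeleton and focal adhesion limma gave 1 rise and 2 falls without passage 7, 11 rises and 1 fall without passage 9, 1 rise and 2 falls without passage 11 and 1 fall after median centring. The balance of rises and falls turned without passage 7 and without passage 11 for actin cytoskeleton and focal adhesion.

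The largest falls came mostly from dim genes. GAS1, a growth-arrest protein at the membrane, read 78.3, 69.8 and 88.4 untreated and 1.78, 1.49 and 5.90 after PMA and fell by 3.82 ± 0.32 (adjusted p = 1.70e-04). MIR181A2HG, the host transcript of a miR-181 cluster, read 56.7, 92.7 and 49.02 untreated and 10.3, 1.15 and 2.62 after PMA (-3.30 ± 0.45, adjusted p = 0.00146). ZNF488, a zinc-finger gene, read 46.9, 61.2 and 63.9 untreated and 1.63, 10.6 and 1.19 after PMA (-3.22 ± 0.41, adjusted p = 0.00109). For these 3 genes the PMA arrays lay at or under the signal minimum (10.2 to 12.7), where a fold change depends on the pseudocount. VAV3 and SHISA3 started higher. VAV3, a guanine nucleotide exchange factor, read 310.3, 366 and 431 untreated and 23.5, 50.7 and 27.4 after PMA and fell by 3.39 ± 0.22 (adjusted p = 6.67e-05). SHISA3, an inhibitor of Wnt and FGF receptor maturation, read 339.6, 256 and 326 untreated and 59.03, 60.4 and 49.5 after PMA (-2.38 ± 0.18, adjusted p = 1.03e-04). KIAA1586, NUDT16L2P, ZFP69, MDM1, GIMAP2 and SPATA7 fell by between 2.42 and 2.92. CBX5, the heterochromatin protein HP1-alpha, read 1018, 435 and 783 untreated and 159.8, 184 and 76.8 after PMA and fell by 2.39 ± 0.32 (adjusted p = 0.00146). The 12 falls, like the rises, were taken from genes whose groups do not overlap. Of the other probe sets above the signal minimum, 1 of 1 for GAS1 and 2 of 5 for CBX5 had a difference of the opposite sign.

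Many zinc-finger genes fell. Of 371 tested genes whose symbol is ZNF with a number, 116 fell (31.3%, against 13.5% of all tested genes) and 9 rose (2.43%), with a median of -0.43. That median was -0.44 after median centring and -0.37 after quantile normalization. Most encode KRAB or related C2H2 proteins, many of them repressors with short-lived transcripts. Beside ZNF488, ZNF112 read 112, 135 and 134 untreated and 27.03, 21.8 and 24.8 after PMA (-2.24 ± 0.20, adjusted p = 2.13e-04). ZNF571 fell by 2.15 ± 0.36 and ZNF30 by 2.12 ± 0.23, each in all 3 passages. Among the 9 that rose, ZNF750 was the largest and ZNF800 rose by 1.24 ± 0.19. Of the other probe sets above the signal minimum, 1 of 1 for ZNF800 had a difference of the opposite sign. By list, limma gave 4 rises and 68 falls without passage 7, 77 falls without passage 11 and 5 rises after median centring for ZNF genes by symbol.

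Part of the cell cycle genes fell. Of 37 DNA replication genes 13 fell (35.1%), and of 28 mitosis genes 11 fell (39.3%) and 1 rose, with medians of -0.38 and -0.37. In bulk samples fewer cells of a type and less RNA per cell cannot be told apart. ORC1, the largest subunit of the origin recognition complex, read 123, 100.05 and 86.04 untreated and 32.5, 37.6 and 33.5 after PMA and fell by 1.49 ± 0.20 (adjusted p = 0.00141). PRIM1, the primase catalytic subunit, fell by 1.27 ± 0.21, E2F8 by 1.18 ± 0.23 and RFC4, a clamp-loader subunit, by 1.10 ± 0.17. The sliding clamp PCNA read 3795, 4303 and 3739 untreated and 4041, 3534 and 3878 after PMA (-0.05 ± 0.11) and the helicase subunit MCM2 read 825, 809 and 699.6 untreated and 653, 449.98 and 624 after PMA (-0.45 ± 0.16, adjusted p = 0.0744), and neither passed. BUB1B, a spindle checkpoint kinase, read 469.99, 490.5 and 524 untreated and 171, 129 and 139.9 after PMA and fell by 1.74 ± 0.16 (adjusted p = 2.26e-04). TTK, the kinase that starts that checkpoint, read 433, 483 and 370.3 untreated and 217, 158 and 233 after PMA and fell by 1.08 ± 0.19 (adjusted p = 0.00484). CCNA2 (cyclin A2) fell by 1.12 ± 0.14 and NDC80, a kinetochore protein, by 1.26 ± 0.21. UBE2C, the ubiquitin-conjugating enzyme of the anaphase-promoting complex, moved against its list and rose by 1.05 ± 0.14. Of 18 tested growth arrest genes and p53 targets 7 rose (38.9%) and 3 fell (16.7%), against 8.66% and 13.5% of all tested genes. CDKN1A (p21), an inhibitor of cyclin-dependent kinases, read 281, 328 and 246 untreated and 2491, 2339 and 2342 after PMA (3.06 ± 0.13, adjusted p = 9.27e-06). GADD45A, a stress sensor, read 502, 503 and 369 untreated and 1311, 1460.5 and 1459.97 after PMA (1.63 ± 0.15, adjusted p = 2.19e-04). GADD45B rose by 1.59 ± 0.15 and PLK3 by 1.60 ± 0.17. CDKN1B (p27), a further cyclin-dependent kinase inhibitor, fell by 1.05 ± 0.13, and the p53 targets SESN1 and TP53INP1 by 1.23 ± 0.19 and 1.53 ± 0.32. MCM2 (adjusted p = 0.0484) passed without passage 11. The change was -0.99 without passage 11 for TP53INP1. The list counts became 6 falls without passage 7 for mitosis genes. For DNA replication genes limma gave 6 falls without passage 7.

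Among apoptosis regulators, both survival genes and death-promoting genes rose. Of 19 BCL2-family and related genes 7 rose (36.8%, against 8.66% of all tested genes). MCL1, a short-lived survival protein, read 1817, 1875 and 1495 untreated and 4108, 3388 and 4543 after PMA (1.21 ± 0.14, adjusted p = 7.67e-04), and BCL2L1, the survival protein BCL-XL, read 128, 126 and 107 untreated and 251, 235 and 277 after PMA (1.06 ± 0.16, adjusted p = 0.00267). The death-promoting members PMAIP1 (NOXA) and BIK rose by 1.77 ± 0.14 and 1.13 ± 0.15. Among 23 genes of unfolded-protein and amino-acid stress 7 rose (30.4%). ATF4, the factor of the integrated stress response, read 1386, 1592 and 1476 untreated and 4097, 3924 and 3689 after PMA (1.39 ± 0.11, adjusted p = 1.15e-04). PPP1R15A (GADD34), which ends that response, rose by 2.29 ± 0.15 and ATF5 by 1.00 ± 0.16, while DDIT3 (CHOP) differed by 0.33 ± 0.21 with overlapping groups. Of 17 NRF2 targets 2 rose (11.8%) and 1 fell (5.88%), against 8.66% and 13.5% of all tested genes. TXNRD1, a thioredoxin reductase, rose by 0.98 ± 0.12. HMOX1 (heme oxygenase) read 30.2, 26.6 and 28.6 untreated and 41.1, 50.4 and 46.2 after PMA (0.63 ± 0.23, adjusted p = 0.0808) and NQO1 read 2012, 2231 and 1839 untreated and 1723, 1250.3 and 1657 after PMA (-0.40 ± 0.15, adjusted p = 0.0848), and neither passed. Among the lists, limma found 4 rises without passage 7 for unfolded-protein and amino-acid stress. For NRF2 targets limma gave 1 rise without passage 7, 1 rise without passage 11, 1 rise after median centring and 2 rises and 4 falls after quantile normalization. The balance of rises and falls turned after quantile normalization for NRF2 targets.

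Sterol synthesis genes had the largest share of falls among the lists. Of 18 tested sterol and fatty acid synthesis genes 10 fell (55.6%), with a median of -0.66. NSDHL and MSMO1, enzymes that strip methyl groups from the sterol ring, fell by 1.74 ± 0.15 and 1.55 ± 0.12, MSMO1 from 2687, 2880.2 and 3182 to 1024, 1039 and 907. SQLE, squalene epoxidase, fell by 1.06 ± 0.16 and DHCR7, the last step to cholesterol, by 1.04 ± 0.17. HMGCS1, an early enzyme of the mevalonate route, read 2125, 1994 and 2539.6 untreated and 1008, 1241 and 1155 after PMA and fell by 0.96 ± 0.13 (adjusted p = 0.00127). In each of these 5 genes all PMA arrays lay below all untreated arrays. The groups were also apart for 2917 of all 2960 called genes and 44.1% of all tested genes, in either direction. Of 20 hypoxia and glycolysis genes 6 rose (30%) and 2 fell (10%), against 8.66% and 13.5% of all tested genes. NDRG1, a gene induced by hypoxia and differentiation, rose by 1.29 ± 0.29 and ANKRD37 by 1.34 ± 0.32. SLC2A1, the main glucose transporter, read 726, 756 and 966 untreated and 713, 696 and 554 after PMA (-0.32 ± 0.17, adjusted p = 0.222) and passed no test. With passage 7 set aside, NDRG1 (adjusted p = 0.0992) and ANKRD37 (0.124) missed the threshold. Other settings gave 1 rise and 1 fall without passage 7, 11 rises without passage 9 and 0 falls (2 at an unadjusted p under 0.05) without passage 11 for hypoxia and glycolysis.

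Bright housekeeping families showed small rises whose calls depended on the scaling. Of 57 tested ribosomal protein genes 19 rose (33.3%), with a median of 0.26, but 0 passed limma after median centring (5 were higher at an unadjusted p under 0.05) and 1 after quantile normalization, where the median was 0.24 and 0.01. RPS6 differed by 0.39 ± 0.10 and RPL36 by 0.47 ± 0.10 on the deposited scale. Of 29 respiratory chain genes 6 rose (20.7%), with a median of 0.15 that turned to -0.02 after quantile normalization. COX4I1, a subunit of cytochrome oxidase, read 4196, 4802 and 4114 untreated and 4908, 4641 and 4935 after PMA (0.15 ± 0.10, adjusted p = 0.333). The calls on RPS6 (adjusted p = 0.161) and RPL36 (0.124) did not hold when passage 7 was left out. COX4I1 (adjusted p = 0.0387) passed without passage 9. In the fit that omitted passage 11, RPL36 (adjusted p = 0.0632) lost its call. By list, limma gave 0 rises (14 at an unadjusted p under 0.05) without passage 7, 44 rises without passage 9 and 1 rise without passage 11 for ribosomal proteins by symbol. For mitochondrial respiratory chain limma gave 0 rises (4 at an unadjusted p under 0.05) without passage 7, 13 rises without passage 9, 0 rises (1 at an unadjusted p under 0.05) without passage 11, 0 rises (2 at an unadjusted p under 0.05) after median centring and 1 rise after quantile normalization.

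**Figure D4:**
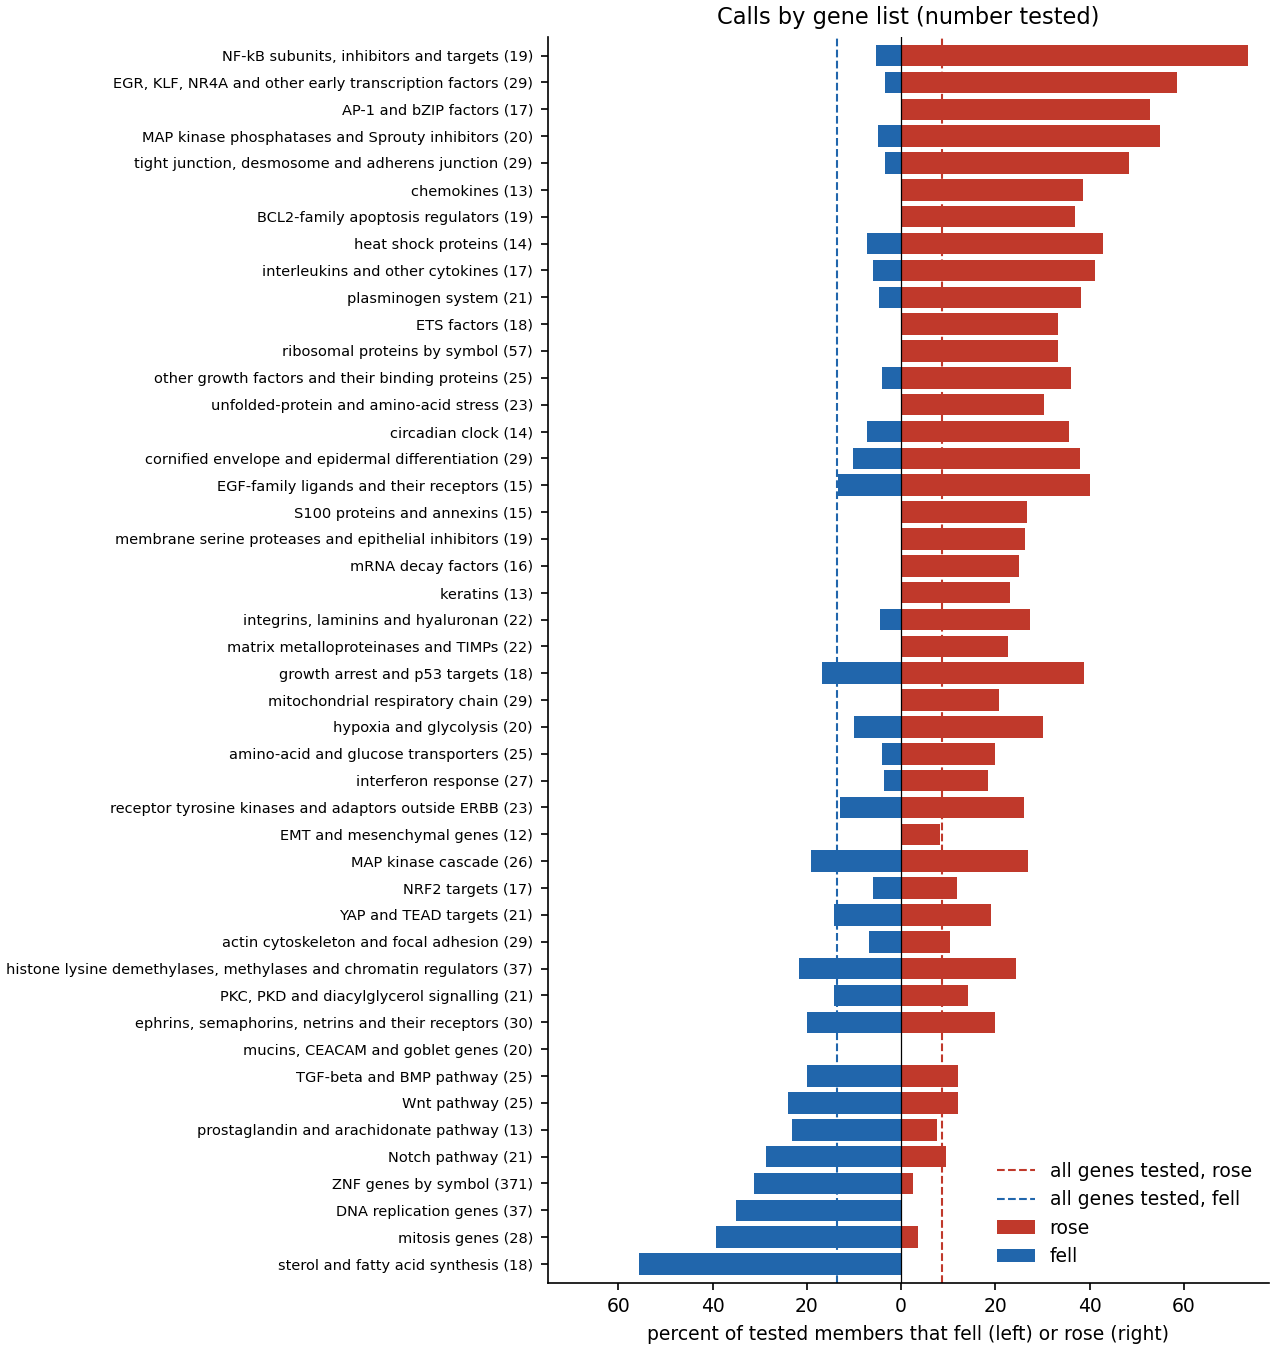
Percent of the tested members of gene lists that rose (red, to the right) or fell (blue, to the left) after PMA, with the number tested in brackets and dashed lines at the shares of all tested genes (8.66% rose, 13.5% fell). The NF-kB list reaches 73.7% rises at the top and the sterol list 55.6% falls at the bottom.

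Genes of developmental pathways changed in both directions. Of 21 Notch genes 2 rose and 6 fell (28.6%), of 25 Wnt genes 3 rose and 6 fell (24%), and of 25 TGF-beta and BMP genes 3 rose and 5 fell (20%), against 13.5% falls among all tested genes. The medians were -0.20, -0.38 and -0.11. The Notch ligand DLL1 fell by 1.26 ± 0.23, from 83.9, 110.05 and 85.4 to 51.7, 36.1 and 26.5, and the coactivator MAML2 by 1.01 ± 0.15. NRARP, a target and inhibitor of Notch, rose by 0.97 ± 0.16. NOTCH1 and its ligand JAG1 differed by -0.11 ± 0.18 and -0.32 ± 0.13 with overlapping groups. AXIN2, a Wnt target that acts back on the pathway, read 19.1, 21.05 and 44.2 untreated and 8.48, 8.43 and 7.68 after PMA (-1.39 ± 0.39, adjusted p = 0.0332). LRP6, a Wnt coreceptor, fell by 1.08 ± 0.17, while DKK1, a secreted inhibitor of LRP6, rose by 1.18 ± 0.18 and the receptor FZD7 by 1.10 ± 0.18. SMAD6, an inhibitor of BMP signals, read 112, 128 and 141 untreated and 39.9, 49.03 and 46.7 after PMA and fell by 1.43 ± 0.17 (adjusted p = 8.87e-04), and SMAD7 read 51.96, 41.3 and 35.4 untreated and 31.7, 30.7 and 19.2 after PMA (-0.61 ± 0.23, adjusted p = 0.0949). SMURF1, a ubiquitin ligase for SMAD proteins, rose by 1.60 ± 0.13. Of 21 YAP and TEAD targets and partners 4 rose and 3 fell, with a median of -0.06 that became 0.02 after quantile normalization. AMOTL2, an angiomotin, read 438, 412 and 463 untreated and 1206, 1237 and 1167 after PMA (1.45 ± 0.13, adjusted p = 1.96e-04), and its relative AMOTL1 fell by 1.60 ± 0.15. VGLL3, a TEAD cofactor, rose by 1.92 ± 0.14. When passage 7 was dropped, AXIN2 (adjusted p = 0.068) missed the threshold. Omitting passage 11 ended the call on AXIN2 (adjusted p = 0.27). Among the lists, limma found 1 rise and 3 falls without passage 7 and 1 rise without passage 11 for Notch pathway. For Wnt pathway limma gave 2 rises and 1 fall without passage 7 and 3 falls without passage 11. For TGF-beta and BMP pathway limma gave 2 rises and 1 fall without passage 7 and 3 rises and 2 falls without passage 11. For YAP and TEAD targets limma gave 2 rises and 3 falls without passage 7. The balance of rises and falls turned without passage 7 for Wnt pathway and without passage 7 and without passage 11 for TGF-beta and BMP pathway and without passage 7 for YAP and TEAD targets.

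Kinase receptors outside the ERBB group and their adaptors changed in both directions. Of 23 such receptors and adaptors 6 rose (26.1%) and 3 fell (13%), against 8.66% and 13.5% of all tested genes. The share of falls was thus near that of all genes. IRS2, an adaptor of the insulin receptor, rose by 1.25 ± 0.14 and its relative IRS1 fell by 0.72 ± 0.13. MET, the receptor of hepatocyte growth factor, read 2907, 3280.2 and 3809.7 untreated and 4577, 3530.1 and 3753 after PMA (0.25 ± 0.14), and AXL read 939, 1041 and 962 untreated and 946, 544 and 756 after PMA (-0.42 ± 0.18), both with overlapping groups. Without passage 7, IRS1 (adjusted p = 0.0858) no longer passed. Other settings gave 1 rise and 0 falls (4 at an unadjusted p under 0.05) without passage 7, 3 rises and 1 fall without passage 11 and 1 fall after quantile normalization for receptor tyrosine kinases and adaptors outside ERBB.

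The response differed from that of AsPC-1 for 118 of 13362 genes (0.883%), by a limma contrast of the changes in both lines over all 12 arrays with line and passage as a block. Of these, 64 changed more upward in BxPC-3 and 54 less. The signal minimum was applied to the BxPC-3 arrays alone, so a gene in this contrast can be dim in AsPC-1. For such a gene the contrast cannot tell a different response from a lack of expression in AsPC-1. The AsPC-1 PMA array of passage 8 correlated at 0.920 with each of the other PMA arrays of that line and at 0.967 with untreated cells of the same passage. Without it 688 genes differed, and all 118 were among them. GRHL3 changed by 4.58 in BxPC-3 and -0.29 in AsPC-1, a difference of 4.86 ± 0.78 (adjusted p = 0.0245, and a difference of 5.18 with 0.00685 without that array). SPRR2B changed by 5.35 in BxPC-3 and -0.28 in AsPC-1, a difference of 5.63 ± 0.48 (adjusted p = 0.00135, and a difference of 5.77 with 3.23e-04 without that array), MYRFL by 4.37 in BxPC-3 and -0.13 in AsPC-1, a difference of 4.50 ± 0.55 (adjusted p = 0.00826, and a difference of 4.09 with 0.00271 without that array) and IL36G by 5.31 in BxPC-3 and 1.79 in AsPC-1, a difference of 3.52 ± 0.58 (adjusted p = 0.0263, and a difference of 3.00 with 0.0107 without that array). VAV3 changed by -3.39 in BxPC-3 and 0.07 in AsPC-1, a difference of -3.46 ± 0.40 (adjusted p = 0.00625, and a difference of -3.64 with 0.00102 without that array) and GAS1 by -3.82 in BxPC-3 and -0.02 in AsPC-1, a difference of -3.80 ± 0.59 (adjusted p = 0.0245, and a difference of -3.62 with 0.0175 without that array). VAV3 was dim in AsPC-1 with or without PMA, at 6.15 to 19.9, against 310 to 431 in untreated BxPC-3, so it had little room to fall there. MMP1 changed by 0.99 in BxPC-3 and 5.29 in AsPC-1, a difference of -4.29 ± 0.76 (adjusted p = 0.0334, and a difference of -3.31 with 0.00368 without that array). PLAUR, by contrast, changed by 4.96 in BxPC-3 and 2.24 in AsPC-1, a difference of 2.72 ± 0.62 (adjusted p = 0.0911, and a difference of 1.80 with 0.00246 without that array), and CLDN4 by 4.33 in BxPC-3 and 1.31 in AsPC-1, a difference of 3.02 ± 0.71 (adjusted p = 0.0959, and a difference of 1.97 with 0.00238 without that array), differences that did not pass in this contrast. In AsPC-1 the CLDN4 signal was 187 on the PMA array of passage 8, against 1235 and 1682 on the other PMA arrays and 239 to 327 in untreated cells. MMP1 read 2769 on that array, against 550 and 436 on the other PMA arrays and 15.1 to 29.5 in untreated cells. PLAU read 1506 there, against 5674 and 5356 on the other PMA arrays and 224 to 389 in untreated cells. A mix-up of labels or a weak treatment for that array was not tested.

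**Figure D5:**
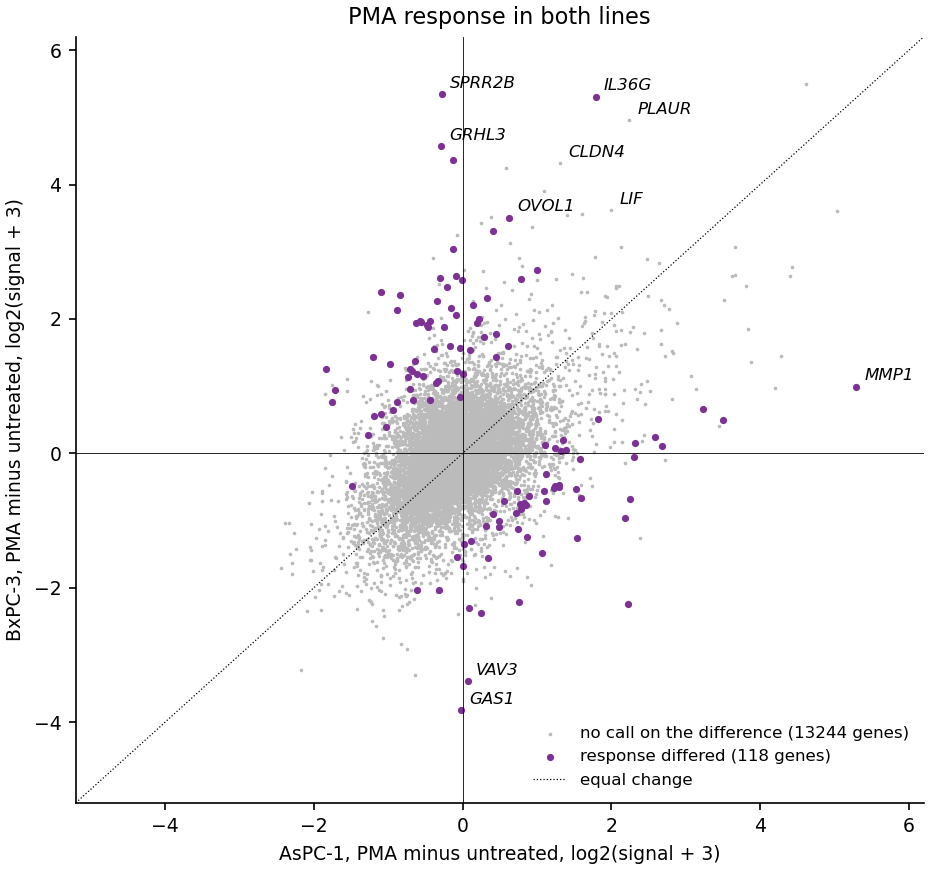
Log2 change after PMA in BxPC-3 (vertical axis) against that in AsPC-1 (horizontal axis), 1 point a gene, both as PMA minus untreated on log2(signal + 3) from the 12-array fit. Purple points are the 118 genes whose response differed between the lines, and the dotted line marks an equal change.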

How the data were processed

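Total RNA was hybridised to Affymetrix arrays, 1 array a culture. The deposited table holds the authors' signal intensity on a linear scale for 54675 probe sets, made with MAS5 per the submitters' processing notes, version not given in the sources used here. Each array's mean, trimmed of the top and bottom 2%, was 100.01 to 100.02. Detection calls were not used here, and the number of arrays limits the precision.

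Values were taken as log2(signal + 3), which understates changes of dim genes, with no further normalization. The 62 control probe sets were left out. Names came from the platform annotation (41091 probe sets with 1 symbol, 1801 with several, 11721 with none, of which only the first were named), with 41037 matched to RefSeq by Entrez ID. The probe set with the highest mean stood for each of 19775 genes. Genes above the array's 40th percentile of named probe sets (10.2 to 12.7) on at least 3 of 6 arrays were tested (13362 genes, 6413 not tested). The fit used limma 3.58.1 in R 4.3.3 (lmFit, eBayes with trend), with passage as a block and Benjamini-Hochberg adjustment at 0.05. The smallest exact two-sided p is 0.25 for 3 pairs and 0.1 for 3 unpaired arrays a group, so no exact test is given for single genes. Figures used matplotlib 3.10.9.

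Treated and untreated arrays with the same number share a passage, per the labels, which pairs them. Their deviations from the group means correlated at -0.06, -0.20 and -0.11 for passages 7, 9 and 11. Named genes follow a rule: the 12 largest rises and falls with groups apart, up to 4 rising and 4 falling members of each list, the first 2 members of each list, and fixed genes. It named 298, of which 203 are reported, and a gene list is not reported here. Lists are described by counts and medians, without a set test. The members, lists and rule were chosen with earlier results of these data known. On simulated data for this comparison (13362 genes, 5 rounds, 200 changed a round), the fit recovered 34.4% of 2-fold and 74.4% of 4-fold changes. Of its calls 1.63% were false, and it made 0 calls without change. The simulation changed far fewer genes than were called here. Its noise was independent, without passage effects or shifts of whole arrays, so these rates need not hold for the real arrays. Alternatives were other sets of arrays, blocks, pseudocounts (1 and 16), filters, probe set summaries, scalings, eBayes without trend, a 2-fold minimum, and leaving out each passage.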

Additional observations from a re-analysis of the deposited data

Results flagged for a closer look

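Among 203 genes named here, the change after PMA differed between BxPC-3 and AsPC-1 for 29 at an adjusted p under 0.05, against 0.883% of all tested genes. The test was the limma contrast of both changes over 12 arrays, with values given as the BxPC-3 change minus the AsPC-1 change on log2(signal + 3) ± standard error. Among genes of squamous and epithelial cells, the response of BxPC-3 was the higher one for GRHL3 (4.86 ± 0.78), SPRR2B (5.63 ± 0.48), OVOL1 (2.88 ± 0.33), ZNF750 (2.68 ± 0.43), KRT23 (3.19 ± 0.52), OCLN (3.16 ± 0.20) and CLDN23 (2.61 ± 0.34). Signals and surface proteins with the higher response in BxPC-3 were IL36G (3.52 ± 0.58), CXCL16 (1.77 ± 0.30), FST (2.13 ± 0.36), ERBB3 (1.65 ± 0.28), PTGS2 (2.32 ± 0.44), ST14 (2.57 ± 0.45), MMP7 (1.41 ± 0.27) and ITGB8 (0.87 ± 0.14). Genes of signalling, cell cycle and cell death with the higher response in BxPC-3 were MYRFL (4.50 ± 0.55), MARCKSL1 (2.59 ± 0.23), MAP3K8 (2.06 ± 0.35), IRS2 (1.96 ± 0.21), SMURF1 (0.99 ± 0.17), VGLL3 (2.39 ± 0.21), PMAIP1 (1.32 ± 0.24) and UBE2C (1.42 ± 0.26). The response of BxPC-3 was the lower one for MMP1 (-4.29 ± 0.76), GAS1 (-3.80 ± 0.59), VAV3 (-3.46 ± 0.40), DLL1 (-2.79 ± 0.53), SHISA3 (-2.63 ± 0.40) and SDC1 (-1.27 ± 0.23). Some of these genes had very different levels in the lines. PTGS2 read 0.179 to 4.34 and VAV3 6.15 to 19.9 on the AsPC-1 arrays, with or without PMA. MMP7 read 4686 to 5226 in untreated AsPC-1 cells, against 96.9 to 106 in untreated BxPC-3 cells. For such genes the contrast cannot tell a different response from a different level before PMA. All 29 also passed without the AsPC-1 PMA array of passage 8. With no replicate block, ERBB3 (adjusted p = 0.507), IRS2 (0.0679), ITGB8 (0.507), MAP3K8 (0.0735), OVOL1 (0.0984) and SDC1 (0.0687) did not pass. The named genes were chosen for their results in BxPC-3, so their number here is not a share of the genome, and no test for an outlying value of a gene was run within groups of 3 arrays.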

How the results depend on the processing

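The report gives 2960 genes that changed, 1157 up and 1803 down. Without the replicate block there were 3714 (1430 up and 2284 down), and dropping the pairing ended 1 of 174 calls among the genes named here, that on GAPDH. Fits over all 12 arrays, which pool the spread of both lines, gave 1740 with the block (705 up and 1035 down) and 1050 without it (445 up and 605 down). They also gave 3145 with the block but without the AsPC-1 PMA array of passage 8 (1229 up and 1916 down), a setting chosen after seeing the data. Without the intensity trend in eBayes there were 1535 (579 up and 956 down). The mean of a gene's probe sets gave 2072 (890 up and 1182 down), and a minimum change of 2-fold left 1086 (415 up and 671 down). Leaving out 1 passage at a time gave 1281 to 3485 genes, 509 to 1442 up and 772 to 2043 down. Median centring gave 2468 (882 up and 1586 down) and quantile normalization 2838 (1159 up and 1679 down), and the other alternatives gave 2307 to 3036. Where a count moved, the cause was not tested, beyond the fewer arrays or larger minimum that a setting sets itself. No called gene named here reversed its direction under these alternatives. Of 174 such calls, 109 held in the 12-array fit without the block, 138 without the trend, 145 with the mean of probe sets (1 was not tested there), 148 without passage 7, 169 without passage 9, 165 without passage 11, 164 after median centring and 163 after quantile normalization. Dim genes limit the fold changes, since 4 named calls lay below the 60th percentile filter.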

Other observations

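Other gene groups of BxPC-3 changed too. Of 14 tested circadian clock genes 5 rose (35.7%) and 1 fell, with a median of 0.00 that was -0.01 after median centring. CSNK1E, a kinase of the PER proteins, rose by 1.36 ± 0.18 and RORA, a nuclear receptor of the clock, by 1.20 ± 0.21, while PER2 read 511, 609 and 464 untreated and 298, 337 and 342 after PMA and fell by 0.69 ± 0.15 (adjusted p = 0.0112). Among 37 chromatin regulators 9 rose (24.3%) and 8 fell (21.6%), with a median of -0.05 that was 0.04 after quantile normalization. ARID3B, a DNA-binding protein of the ARID family, rose by 2.21 ± 0.16 and TET3, a 5-methylcytosine oxidase, by 1.33 ± 0.18. KDM6B, a histone H3 lysine demethylase, read 150.3, 136 and 159 untreated and 229, 417 and 335 after PMA (1.08 ± 0.20, adjusted p = 0.00578). ARID1A, a subunit of the SWI/SNF remodelling complex, fell by 1.18 ± 0.18. Of 14 heat shock proteins and partners 6 rose (42.9%) and 1 fell, and DNAJA1, a cochaperone of HSP70, rose by 0.97 ± 0.09. Of 25 amino-acid and glucose transporters 5 rose (20%) and 1 fell. SLC3A2, the chain shared by several amino-acid transporters, rose by 0.72 ± 0.16, and its partner SLC7A5 read 486, 484 and 408 untreated and 400.1, 293 and 451 after PMA (-0.28 ± 0.18). Leaving out passage 7 ended the call on PER2 (adjusted p = 0.105). Among the lists, limma found 3 rises without passage 7 for circadian clock. For histone lysine demethylases, methylases and chromatin regulators limma gave 1 fall without passage 7 and 2 falls without passage 11. For heat shock proteins limma gave 1 rise without passage 7, 2 rises without passage 11 and 2 rises after median centring. For amino-acid and glucose transporters limma gave 1 rise without passage 7, 2 rises without passage 11, 2 rises after median centring and 3 rises after quantile normalization.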
